A study of Mus musculus with 6 samples.

Results

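The erythroid genes described here are 41 genes that developing red blood cells use to make heme, to build their membrane and to regulate their own formation. They were chosen by name. The list holds 12 genes of heme and iron metabolism, 12 genes of the red cell membrane, 11 transcription factors and 6 other red cell genes. For 39 of them the array table had at least 1 probe set (a group of short probes that reads 1 transcript) paired with that symbol alone, and 82 such probe sets were found among 45101. Epb41 and Ahsp had no such probe set and were not analysed here. RNA came from whole FVB mouse embryos at 10.5 days of gestation (E10.5). Diabetes-exposed embryos had mothers that received 2 injections of 100 mg/kg streptozotocin, a toxin of the insulin-producing beta cells, and that were mated only when their blood glucose exceeded 250 mg/dl. Control embryos had mothers that were not diabetic, and according to the study's methods all embryos that entered the pools were morphologically normal. Each group had 3 pools, each made of RNA from 3 embryos of different pregnancies, and each pool was hybridized to 1 Affymetrix Mouse 430 2.0 array. A pool averages over its embryos, and streptozotocin was given to the exposed mothers only, so that exposure to the drug and to diabetes cannot be told apart.

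Red blood cells of the mouse embryo at this stage are mainly primitive erythroid cells, which arise in the yolk sac, enter the circulation with their nuclei and carry embryonic globins. Definitive cells of the fetal liver follow later. Heme is made in a chain of enzymes that starts and ends in the mitochondrion, from Alas2 through Alad, Uros, Urod, Cpox and Ppox to Fech. Its iron is taken up through the transferrin receptor Tfrc and carried across the inner mitochondrial membrane by Slc25a37. The red cell membrane is held to a spectrin skeleton by ankyrin and the anion exchanger Slc4a1. The genes of these proteins are known targets of Gata1, of Klf1 and of a complex of Gata1 with Tal1, Lmo2 and Ldb1, and Zfpm1 (Friend of Gata1) is the partner protein of Gata1.

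Signals of embryonic globins showed that all 6 pools held erythroid cells. Hbb-bh1, an embryonic beta-like globin, had signals of 36026, 28607 and 35192 in exposed pools, against 31918, 29261 and 30029.2 in control pools. None of the 5 measured globins changed (adjusted p of 0.158 or more). The summed globin signal was 73559 to 89987 in exposed pools and 73999 to 79699 in control pools, and these ranges overlapped. In such bulk samples, fewer cells of a type and less RNA per cell cannot be told apart. RNA of whole embryos also does not show which tissue a member's signal came from, in members that rose as in those that fell. The arrays differed in 3' bias, the excess of signal from the 3' end of a transcript over its 5' end or middle. The 3' to 5' ratio of Actb was 10.1, 3.09 and 10.3 in exposed pools and 1.71, 1.76 and 2.19 in control pools, and that of Gapdh was 0.972 to 1.84 in exposed and 0.824 to 0.921 in control pools. The ratio of 3' to middle signal of spiked poly-A control transcripts, added before labelling, was 6.56, 3.47 and 7.00 in exposed pools and 2.10, 2.07 and 2.52 in control pools. For each of these 3 ratios every exposed pool was above every control pool (two-sided exact permutation p = 0.1, the smallest that 3 pools against 3 can give). The part of 3' bias in the results below was not tested apart from an alternative fit in which the spike ratio was a covariate.

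Each gene was read at its brightest tested probe set, and the words rose and fell are used of adjusted p values under 0.05 (limma, Benjamini-Hochberg over 30025 probe sets). Of the 39 measured genes 13 fell, 3 rose and 23 had no call in exposed pools relative to control pools. Among all 13956 genes tested 19.9% fell and 17.6% rose, so that the share that fell was higher among the members and the share that rose (7.69%) lower. The median log2 fold change of the 39 genes was -0.32, while that of all genes was -0.00025. In 12 of the 39 genes every exposed pool lay below every control pool, which held for 26.5% of all genes, and in 3 genes every exposed pool lay above every control pool, which held for 25.9% of all genes. Of 11 membrane genes 6 fell and 0 rose, of 11 transcription factors 4 fell and 0 rose, of 5 other red cell genes 2 fell and 0 rose, and of 12 heme and iron genes 1 fell and 3 rose. With signals averaged over a gene's probe sets 5 of the 11 membrane genes and 4 of the 12 heme and iron genes fell, beside 25.2% of all genes. The counts depended on the scaling of the arrays. With arrays centred on their medians, which moved the median of all genes to 0.30, 5 members fell and 4 rose, beside 1218 falls and 4066 rises among all genes. Without control replicate 1, control replicate 2 or diabetes-exposed replicate 3, the number of members that fell was 6, 8 and 7 in that order, and the share of all genes that fell in those fits was 13.5%, 13.2% and 14.8%.

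**Figure D1:**
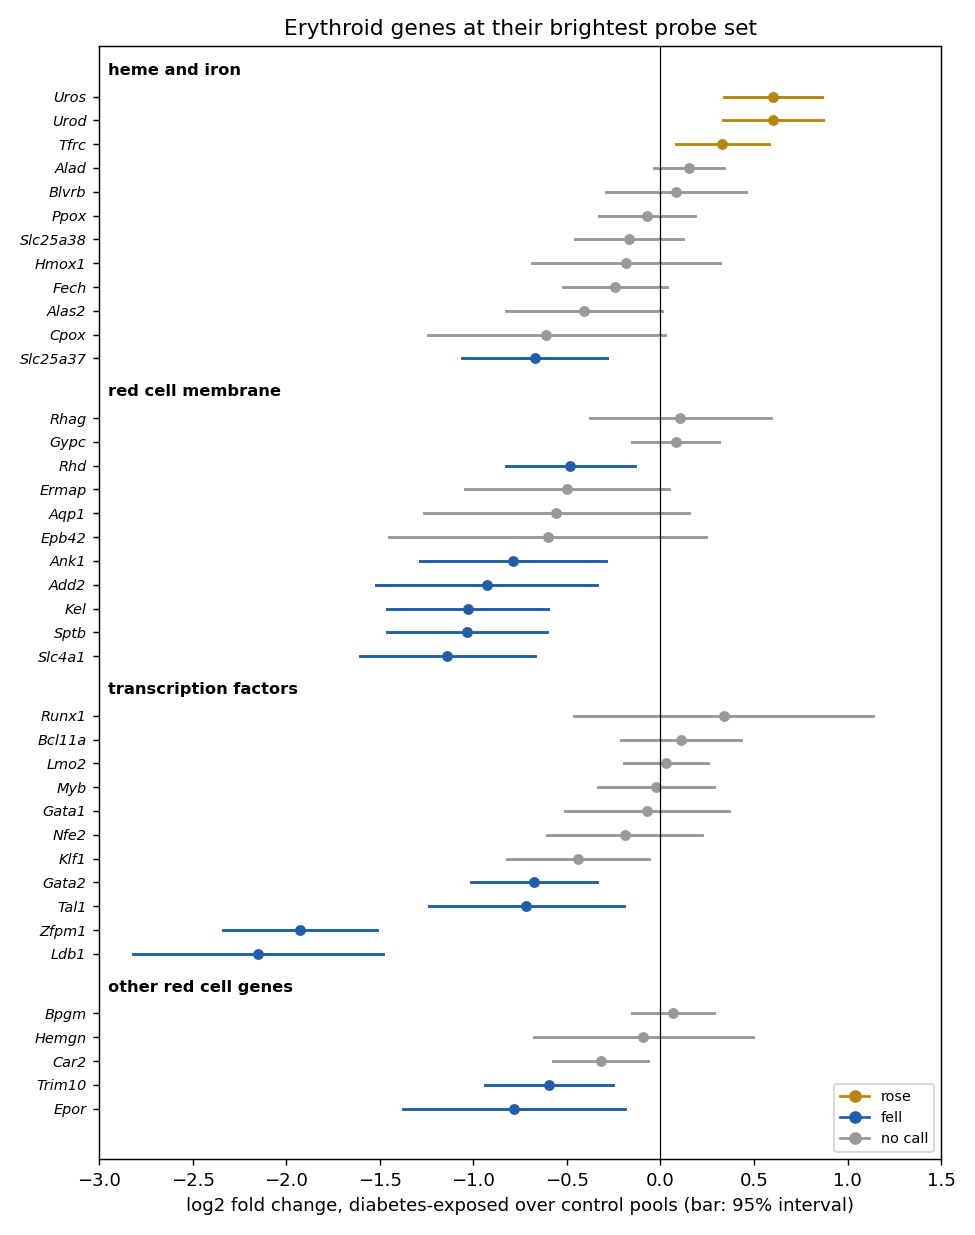
Log2 fold change of the 39 measured erythroid genes (x axis, diabetes-exposed over control pools, 3 pools each), each at its brightest probe set, by group of genes (y axis). Points are estimates and bars their 95% intervals, and colours give the call: the largest falls are those of Ldb1 (-2.15) and Zfpm1 (-1.92), and Uros and Urod stand highest at 0.60.

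Promoters of 31 of the 41 genes were found in the RefSeq table for assembly GRCm38.p6, some with several starts, which gave 42 promoters. The 250 bases before each start were searched on both strands for a GATA motif (AGATAA or AGATAG or TGATAA or TGATAG), the site that Gata1 and Gata2 bind, and for a CACCC box (CCNCNCCC), the kind of site that Klf1 binds. The GATA motif was in 40.5% of the 42 promoters and in 26.5% of all 32851 promoters of the table, and the CACCC box was in 66.7% and 45.9%. Read by gene, 7 of 10 genes that fell, 1 of 3 that rose and 8 of 17 with no call had a GATA motif, beside 29.7% of all genes. A gene with more starts has more room for a match. Read by promoter, the GATA motif was in 50% of 14 promoters of genes that fell. It was in 20% of 5 promoters of genes that rose and in 40% of 20 of genes with no call. A CACCC box was near 7 of 10 genes that fell, 2 of 3 that rose and 11 of 17 with no call, beside 48.5% of all genes. A match of letters is a description and shows no binding. The 150 bases before the start are printed for 7 genes, so that genes that fell (Kel, Rhd, Epor and Sptb) can be read beside 1 that rose (Uros) and 2 with no call (Alas2 and Klf1). The printed genes are not typical: of the 10 genes that fell, only Kel, Rhd and Epor had a GATA motif in these 150 bases. Add2, Gata2, Ldb1, Tal1, Trim10 and Zfpm1 fell, had none there and are not printed. Cpox, Ermap, Hemgn and Rhag, with no call, had a GATA motif there and are not printed. Capitals mark the 2 motifs on either strand, and where matches to the CACCC box overlap the whole run is in capitals.
Kel, chr6:41704326-41704475, minus strand: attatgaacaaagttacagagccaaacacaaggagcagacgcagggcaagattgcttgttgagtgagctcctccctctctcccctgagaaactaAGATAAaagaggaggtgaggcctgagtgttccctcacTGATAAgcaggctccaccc
Rhd, chr4:134864386-134864535, plus strand: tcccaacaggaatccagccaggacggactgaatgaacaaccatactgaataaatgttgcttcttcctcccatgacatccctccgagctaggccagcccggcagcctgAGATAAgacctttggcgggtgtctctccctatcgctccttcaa
Epor, chr9:21963577-21963726, minus strand: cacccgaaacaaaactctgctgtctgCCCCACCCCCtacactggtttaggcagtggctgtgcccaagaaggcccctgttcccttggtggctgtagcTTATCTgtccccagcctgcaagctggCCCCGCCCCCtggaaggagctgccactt
Sptb, chr12:76710548-76710697, minus strand: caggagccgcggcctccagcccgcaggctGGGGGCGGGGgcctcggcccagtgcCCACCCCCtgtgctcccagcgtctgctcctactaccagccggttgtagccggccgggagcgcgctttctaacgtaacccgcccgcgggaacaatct
Uros, chr7:133702501-133702650, minus strand: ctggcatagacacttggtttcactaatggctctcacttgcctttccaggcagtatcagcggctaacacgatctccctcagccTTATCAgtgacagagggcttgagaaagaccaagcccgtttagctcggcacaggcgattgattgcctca
Alas2, chrX:150547267-150547416, plus strand: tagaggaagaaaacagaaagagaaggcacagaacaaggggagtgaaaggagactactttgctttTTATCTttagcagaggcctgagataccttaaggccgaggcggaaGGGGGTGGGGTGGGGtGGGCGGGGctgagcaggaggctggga
Klf1, chr8:84901832-84901981, plus strand: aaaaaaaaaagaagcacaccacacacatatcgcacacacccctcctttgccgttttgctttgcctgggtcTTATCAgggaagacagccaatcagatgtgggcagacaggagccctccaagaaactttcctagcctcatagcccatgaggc
Kel had GATA motifs that began 56 and 19 bases before its start, and Rhd had 1 that began 43 bases before. Epor had a GATA motif 54 bases before its start between CACCC boxes on either side, and Alas2 had 1 at 86 bases with a run of CACCC boxes nearer to the start. Sptb had CACCC boxes and no GATA motif in these bases, and Klf1 and Uros (printed at 1 of its 2 starts) had a GATA motif and no CACCC box. At its other start Uros had a CACCC box and no GATA motif.

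Genes of the red cell membrane had the lowest median of the 4 groups, at -0.60 on the log2 scale, and 9 of the 11 had estimates below 0. Slc4a1, the anion exchanger band 3 that swaps chloride for bicarbonate and anchors the skeleton, had signals of 2119, 1164 and 1371 in exposed pools and 3878, 2984 and 3115 in control pools. All exposed pools were below all control pools, 2.20-fold on average (log2 fold change -1.14, 95% interval -1.61 to -0.67, adjusted p = 0.0037). A separate probe set of Slc4a1 gave 1519, 982 and 801 in exposed pools and 3493, 2761 and 3110.0 in control pools, and it fell too (-1.55, adjusted p = 0.0012). Sptb, the beta chain of erythroid spectrin, had signals of 251, 209 and 185 in exposed pools and 497, 481 and 348 in control pools. Its groups did not overlap and the fall was 2.05-fold (-1.03, adjusted p = 0.0038). A dimmer probe set of Sptb gave 90.2, 75.5 and 90.2 in exposed pools and 86.4, 60.2 and 45.2 in control pools, with groups that overlapped and no call (0.46, adjusted p = 0.29). With signals averaged over its probe sets Sptb had no call (-0.29, adjusted p = 0.32).

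Kel, which encodes the Kell blood group protein, had signals of 396, 288 and 245 in exposed pools, against 703, 624 and 546 in control pools. This was a 2.04-fold fall with no overlap between the groups (-1.03, interval -1.46 to -0.60, adjusted p = 0.0039). Slc4a1, Sptb and Kel also fell with each of the 6 pools left out in turn and under all 3 other scalings of the arrays. Once the spike ratio was added as a covariate, their estimates were -1.72, -0.88 and -1.01, and none passed (adjusted p = 0.072, 0.34 and 0.28).

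The other members that fell here were Add2, Ank1 and Rhd. Add2 encodes beta adducin, which caps actin where it meets spectrin, and its signals were 279, 163 and 136 in exposed pools and 320.3, 399 and 332 in control pools (-0.93, adjusted p = 0.023). Ank1 encodes the ankyrin that ties Slc4a1 to spectrin, with signals of 258, 164 and 236 in exposed pools and 367, 457 and 306 in control pools (-0.79, adjusted p = 0.022). Rhd encodes the Rh blood group protein, with 317, 244 and 259 in exposed pools and 408, 347 and 385 in control pools (-0.48, adjusted p = 0.037). In all 3 the exposed pools were below the control pools without overlap, but none was called under any of the 3 other scalings. Add2 was not called without control replicate 1 or 2 or diabetes-exposed replicate 3 (adjusted p = 0.053, 0.082 and 0.074), and Ank1 without control replicate 1 or 2 (0.065 and 0.089). Rhd was called with 1 of the 6 pools left out, diabetes-exposed replicate 1 (0.031), and not without any of the others (0.062 to 0.13).

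The remaining 5 measured membrane genes had no call. Rhag, the Rh-associated glycoprotein that carries ammonia and gases, had signals of 997, 545 and 679 in exposed pools and 775, 648 and 589 in control pools. These groups overlapped (0.11, interval -0.38 to 0.59, adjusted p = 0.73), and the estimate was below 0 without diabetes-exposed replicate 1 (-0.13) and when the spike ratio was a covariate (-0.48). Gypc, which encodes glycophorin C, gave 0.08 (interval -0.15 to 0.32). Ermap, a red cell adhesion protein, gave -0.50, the water channel Aqp1 gave -0.56, and Epb42, which encodes protein 4.2, gave -0.60, each with overlapping groups and an adjusted p of 0.14 or more. Epb42 had 372, 123 and 154 in exposed pools, high in replicate 1 alone, and 313, 239 and 329 in control pools. Its dimmer probe set fell, with 5.9, 9.4 and 26 in exposed pools and 206, 181 and 141 in control pools (-3.94, adjusted p = 0.0013). The filter on dim probe sets used the mean over all 6 pools, and this probe set passed it only through its control pools. The size of this fall is therefore uncertain.

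**Figure D2:**
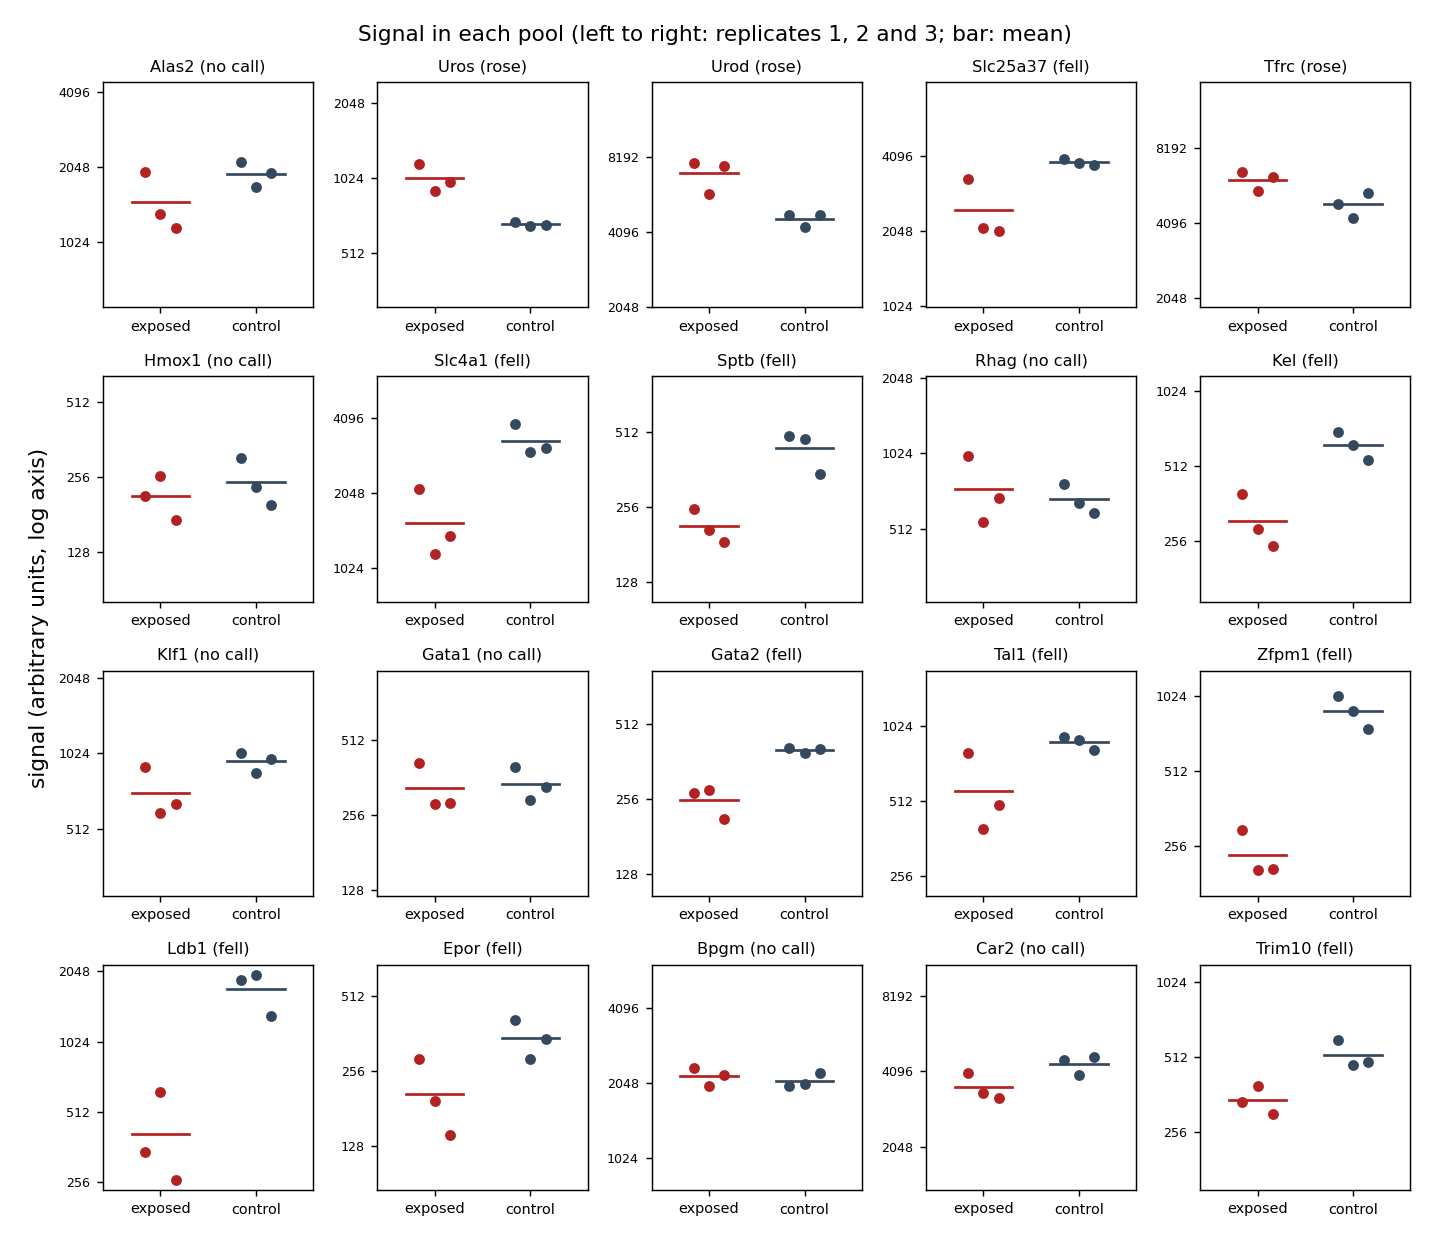
Signal of 20 erythroid genes in each pool (y axis, arbitrary units on a log axis of base 2), with diabetes-exposed pools on the left and control pools on the right of each panel. Points run from replicate 1 to 3 and bars are group means; Zfpm1 and Ldb1 show the widest gaps (205 to 296 in exposed and 758 to 1023 in control pools for Zfpm1), while Gata1 and Bpgm overlap.

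Among transcription factors, the 2 lowest log2 fold changes of all 39 genes were those of Gata1's cofactor Zfpm1 and of Ldb1, the bridging protein of the Gata1 and Tal1 complex. Zfpm1 had signals of 296, 205 and 207 in exposed pools and 1023, 889 and 758 in control pools. The highest exposed pool lay far below the lowest control pool, and the fall was 3.80-fold (-1.92, interval -2.34 to -1.51, adjusted p = 3.5e-04). A dimmer probe set of Zfpm1 gave 7.9, 18.8 and 34.9 in exposed pools and 161, 143 and 28.3 in control pools, with groups that overlapped (-2.32, adjusted p = 0.045). That probe set passed the filter on dim probe sets only through its control pools. Ldb1 had 345, 620.0 and 262 in exposed pools and 1881, 1978 and 1313 in control pools. Its groups did not overlap and the fall was 4.44-fold (-2.15, adjusted p = 0.0013). Both falls held with each of the 6 pools left out and under the 3 other scalings. Whether Zfpm1 and Ldb1 fell in red cells or in other tissues of the embryo was not tested. Once the spike ratio was added as a covariate, Zfpm1 gave -2.10 (adjusted p = 0.041), whereas Ldb1 gave -0.64 (adjusted p = 0.28). The exposed pool with the lowest spike and Actb ratios, replicate 2, had the highest exposed signal of Ldb1 and the lowest of Zfpm1. Among exposed pools, this replicate was the highest in 8 of the 39 genes and the lowest in 21. The part of 3' bias in these falls was not tested further.

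The partners of these cofactors differed among themselves. Gata1, the main factor of erythroid cells, had signals of 415, 284 and 285 in exposed pools and 398, 294 and 332 in control pools. The groups overlapped throughout (-0.07, interval -0.51 to 0.37, adjusted p = 0.81), and under median centring, quantile and cyclic loess normalization the estimate was above 0 at 0.23, 0.23 and 0.15. Gata2, which acts in blood stem and progenitor cells and also in endothelium and neurons, had 270.2, 278 and 213 in exposed pools and 411, 391 and 405 in control pools. It fell without overlap (-0.68, adjusted p = 0.0083), as did its other tested probe set (-0.93, adjusted p = 0.0093). Gata2 passed with each pool left out, but not under median centring (-0.38, adjusted p = 0.13) or quantile normalization (-0.37, adjusted p = 0.077).

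Tal1, the basic helix-loop-helix factor that is needed for all blood formation, had 801, 394 and 492 in exposed pools, against 928, 905 and 824 in control pools. The exposed replicate 1 came close to the control pools and the other 2 were lower (-0.72, interval -1.24 to -0.20, adjusted p = 0.038). Tal1 was called with 1 of the 6 pools left out, diabetes-exposed replicate 1 (-1.01, adjusted p = 0.0051), and not without any of the others (adjusted p of 0.063 to 0.11). It had no call under median centring (-0.42, adjusted p = 0.15), quantile normalization (-0.52, 0.11) or cyclic loess normalization (-0.58, 0.087). Lmo2, another protein of the complex with Gata1 and Ldb1, had 783, 723 and 773 in exposed pools and 745, 713 and 775 in control pools. These values overlapped and their interval was narrow (0.03, -0.20 to 0.25).

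Klf1, the erythroid factor named for its binding of CACCC boxes, had signals of 905, 588 and 642 in exposed pools and 1029.7, 853 and 976 in control pools. The exposed replicate 1 lay among the control pools and there was no call (-0.44, interval -0.82 to -0.06, adjusted p = 0.069). Without that pool the estimate was -0.63 (adjusted p = 0.015). The remaining factors had no call at their brightest probe sets. They were Nfe2, a globin gene activator (-0.19), Myb, a factor of definitive progenitors (-0.03), Bcl11a, a repressor of embryonic and fetal globins (0.11), and Runx1, a factor of definitive blood stem cells (0.34), with overlapping groups in each and adjusted p of 0.46 to 0.91. Probe sets with lower signal did fall, at -2.04 and -1.11 for Bcl11a (adjusted p = 0.0020 and 0.0074). For Myb the dimmest had 57.2, 66 and 60.9 in exposed pools and 107, 128 and 135 in control pools, without overlap (adjusted p = 0.012). Dimmer probe sets of Runx1 differed in direction and had no call. One had 83.4, 87.6 and 97.4 in exposed and 31, 2.9 and 45.1 in control pools, without overlap (2.49, adjusted p = 0.064). Another gave -1.12 (adjusted p = 0.13). The median of the 11 factors was -0.19, and it was above 0 under median centring (0.11), quantile (0.14) and cyclic loess normalization (0.043), each time below the median of all genes under the same scaling (0.30, 0.14 and 0.080).

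The heme and iron genes included all 3 members that rose. Uros, uroporphyrinogen III synthase, had signals of 1160.2, 909 and 983 in exposed pools and 681, 657 and 663 in control pools. All exposed pools were above all control pools, by 1.52-fold (0.60, interval 0.34 to 0.86, adjusted p = 0.0046), and the rise held with each pool left out and under the 3 other scalings. Urod, the decarboxylase that acts next, had 7768, 5853 and 7588 in exposed pools and 4784, 4309 and 4809 in control pools. This was also a 1.52-fold rise without overlap (0.60, adjusted p = 0.0051), at a probe set that may bind several transcripts. A separate probe set of Urod gave 1473, 1763 and 1458 in exposed pools and 1491, 1349 and 1566 in control pools, with overlapping groups and no call (0.09, adjusted p = 0.57). Once the spike ratio was added as a covariate, Uros gave 0.34 and Urod 0.09 (adjusted p = 0.52 and 0.81).

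Tfrc, the transferrin receptor, was the only member with probe sets called in opposite directions. At its brightest probe set it had 6561, 5484 and 6230.1 in exposed pools and 4857, 4283 and 5419 in control pools, a 1.26-fold rise in which the lowest exposed pool stood just above the highest control pool (0.33, adjusted p = 0.043). Without control replicate 1 or 2, or diabetes-exposed replicate 1 or 3, this rise was not called (adjusted p of 0.11 to 0.17). Nor was it called under quantile normalization (0.093, adjusted p = 0.42), under cyclic loess normalization (0.14, 0.24) or without the filter on dim probe sets (adjusted p = 0.060), while under median centring it was (0.63, 0.015). Its other tested probe set had 191, 131 and 142 in exposed pools and 816, 625 and 331 in control pools, a fall without overlap (-1.86, adjusted p = 0.0027). The array also carries control probe sets along the Tfrc transcript, which were not part of the fit. The one at the 3' end gave 108, 95.6 and 138 in exposed pools and 642, 474 and 224 in control pools. The one in the middle gave 25.9, 33.8 and 23.9 in exposed pools and 155, 107 and 35.5 in control pools, and the one at the 5' end gave 2.1, 10.6 and 17.3 in exposed pools and 187, 123 and 18.1 in control pools. Exposed pools were below control pools in all 3 (exact permutation p = 0.1 each, the smallest possible). The 3' to 5' ratio within Tfrc was 51.3, 9.02 and 7.95 in exposed pools and 3.43, 3.85 and 12.4 in control pools, and these overlapped (exact permutation p = 0.3). With the mean of the tested probe sets, Tfrc fell by 0.76 on the log2 scale (adjusted p = 0.0046).

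Slc25a37, or mitoferrin, was the only heme and iron gene that fell at its brightest probe set. Its signals were 3302, 2089.6 and 2045 in exposed pools and 3967, 3832 and 3746 in control pools. The control pools were close together, and all exposed pools lay below them (1.59-fold, -0.67, interval -1.06 to -0.28, adjusted p = 0.015). The fall was not called with control replicate 1 or diabetes-exposed replicate 3 left out (adjusted p = 0.056 and 0.057) or under median centring (-0.37, adjusted p = 0.14).

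Alas2, the enzyme that commits erythroid cells to heme synthesis, had signals of 1945, 1318 and 1162 in exposed pools and 2139, 1694 and 1926 in control pools. The exposed replicate 1 was above 2 of the control pools, and the gene had no call (-0.41, interval -0.83 to 0.01, adjusted p = 0.12). Without that pool the estimate was -0.63 and passed (adjusted p = 0.015). Hmox1, heme oxygenase 1, which breaks heme down and responds to oxidative stress, had 215, 258 and 171 in exposed pools and 304, 232 and 197 in control pools. The groups overlapped (-0.18, interval -0.69 to 0.32, adjusted p = 0.55), and under median centring, quantile and cyclic loess normalization the estimate was above 0 (0.11, 0.13 and 0.049).

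The other 6 heme and iron genes had no call at their brightest probe sets. Alad, which acts after Alas2 in the chain, gave 0.15, and Blvrb, a biliverdin reductase, gave 0.08. Cpox, Ppox and Fech, the last 3 enzymes, gave -0.61, -0.07 and -0.24, and Slc25a38, the mitochondrial glycine carrier that feeds Alas2, gave -0.17. All 6 had overlapping groups and adjusted p of 0.12 to 0.73. Cpox, coproporphyrinogen oxidase, fell once the spike ratio was added as a covariate (adjusted p = 0.021) and with signals averaged over its probe sets (-0.69, adjusted p = 0.022). Cpox, Ppox and Fech each had a dimmer probe set that fell. For Fech, ferrochelatase, it had 901, 1063 and 879 in exposed pools and 1729, 1582 and 1748 in control pools (-0.84, adjusted p = 9.9e-04), with exposed pools well below control pools. The median of the 12 heme and iron genes was -0.12, and it was above 0 under median centring (0.18), quantile (0.091) and cyclic loess normalization (0.029), each time below the median of all genes under that scaling.

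Of the 5 other red cell genes, Epor and Trim10 fell. Epor, the erythropoietin receptor, had 288, 195 and 143 in exposed pools and 412, 286 and 346 in control pools. Diabetes-exposed replicate 1 was just above control replicate 2, so that Epor was the only member that fell with overlapping groups (1.72-fold, -0.78, interval -1.38 to -0.19, adjusted p = 0.044). Epor was called with 1 of the 6 pools left out, diabetes-exposed replicate 1 (adjusted p = 0.017), and not without any of the others (0.055 to 0.15). It had no call under median centring (-0.48, adjusted p = 0.13), quantile normalization (-0.46, 0.19) or cyclic loess normalization (-0.55, 0.13), nor without the filter on dim probe sets (0.056). Trim10, a protein needed late in erythroid maturation, had 339, 392 and 303 in exposed pools and 598, 476 and 489.8 in control pools. All exposed pools were lower (1.51-fold, -0.60, adjusted p = 0.015), but Trim10 had no call under the 3 other scalings (-0.30, -0.32 and -0.40 under median centring, quantile and cyclic loess normalization) or without control replicate 1 or diabetes-exposed replicate 3 (adjusted p = 0.066 and 0.054).

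Car2, carbonic anhydrase 2, had signals of 4039, 3359 and 3210.4 in exposed pools and 4558, 3957 and 4694 in control pools. Diabetes-exposed replicate 1 was above control replicate 2, and the gene just missed the threshold (-0.32, interval -0.57 to -0.07, adjusted p = 0.052). Car2 fell under quantile (-0.48, adjusted p = 0.0053) and cyclic loess normalization (-0.46, 0.0086), and had no call under median centring (-0.02, 0.93). Bpgm, the enzyme that makes bisphosphoglycerate, which lowers the oxygen affinity of hemoglobin, had 2342, 1987 and 2191 in exposed pools and 1978, 2015 and 2233 in control pools. The groups overlapped (0.07, interval -0.15 to 0.28), while its dimmest probe set fell, with 453, 761 and 377 in exposed pools and 1078, 1104 and 938 in control pools (-1.03, adjusted p = 0.0091). Hemgn, a nuclear protein of blood progenitors, had 2585, 1138 and 1942 in exposed pools and 2059, 1655 and 2025 in control pools, with no call and a wide interval (-0.09, -0.68 to 0.49).

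The choice of probe set mattered for these genes. Leaving aside the 3 control probe sets of Tfrc, 69 of the 79 member probe sets passed the filter on dim probe sets and 10 did not. Of the 69 tested, 29 fell, 3 rose and 37 had no call, while of all 30025 probe sets 21.8% fell and 14.4% rose. The 29 falls included dimmer probe sets of 7 genes without a call at the brightest one: Cpox, Ppox, Fech, Epb42, Bcl11a, Myb and Bpgm. They also included dim probe sets of Epb42, Zfpm1 and Add2 that passed the filter only through their control pools. Tested probe sets numbered 2 or more in 18 genes, and in 14 of these (77.8%) the brightest had the higher log2 fold change than the dimmest, which held for 64.6% of 6515 such genes on the array. The median log2 fold change over the 18 genes was -0.16 at the brightest and -0.96 at the dimmest probe set, and over the 6515 genes it was 0.0062 and -0.28. Positions of the probes along the transcripts were not used here.

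**Figure D3:**
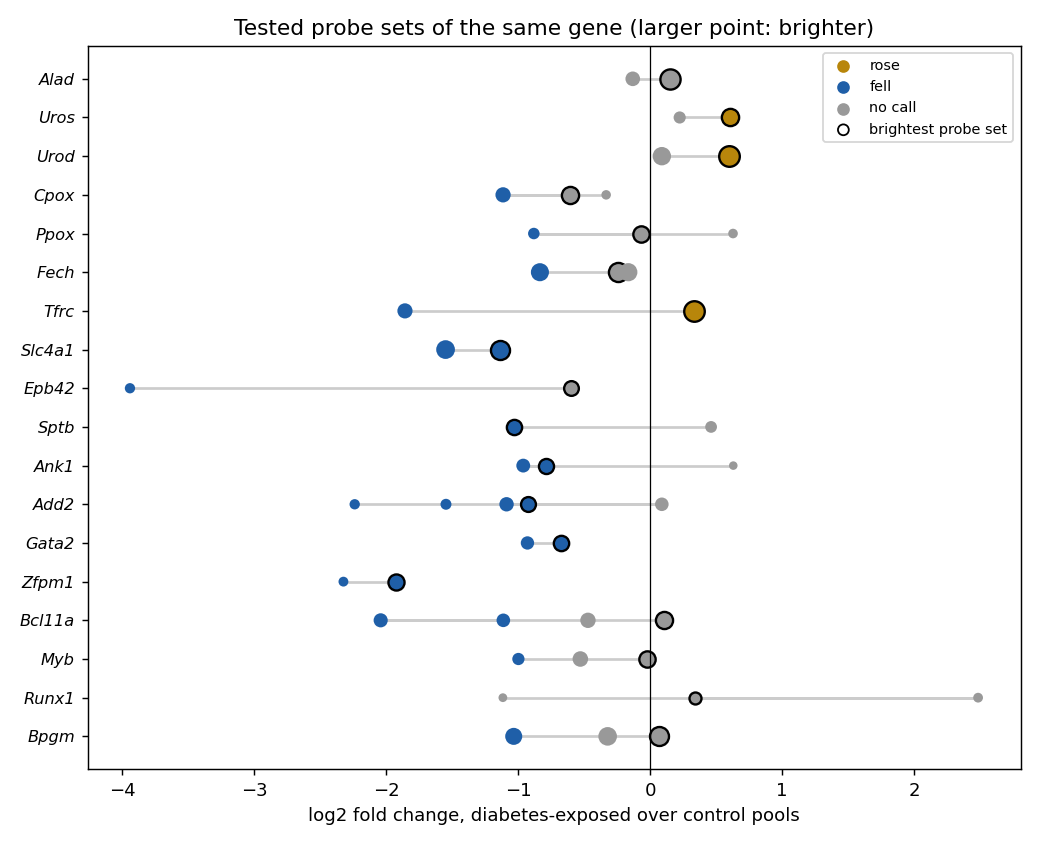
Log2 fold change (x axis, diabetes-exposed over control pools) of every tested probe set of the 18 erythroid genes that had several (y axis), with point area growing with mean log2 signal and the brightest probe set outlined. Falls at dim probe sets lie to the left of the brightest one for genes such as Tfrc (-1.86 against 0.33), Epb42 (-3.94 against -0.60) and Bcl11a. The dim probe set of Epb42 passed the filter only through its control pools.

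Within a group, the members tended to be high or low in the same pools, more than all genes did. Whether the spread between pools was larger for members was not tested. Among exposed pools, replicate 1 was the highest in 29 of the 39 members (74.4%), beside 33.6% of all genes, and replicate 2 was the lowest in 21 (53.8%, beside 38.6%). Among control pools, replicate 1 was the highest in 24 members (61.5%), beside 29.6% of all genes, and replicate 2 was the lowest in 24 (61.5%, beside 33.6%). The median member stood 0.23 above the mean of its group on the log2 scale in diabetes-exposed replicate 1, and 0.13 below it in each of replicates 2 and 3. In control pools the median member stood 0.11 above, 0.10 below and 0.0063 above the group mean in replicates 1, 2 and 3, while for all genes these medians lay within 0.02 of 0 in each of the 6 pools. Of the groups of genes, membrane genes had the largest median deviation, at 0.38 in diabetes-exposed replicate 1. Ldb1, Gata2, Trim10, Hmox1, Aqp1, Nfe2, Ppox and Slc25a38 were highest in exposed replicate 2 instead. Without diabetes-exposed replicate 1, 18 members fell, beside 13 with all pools, and 15.5% of all genes fell, beside 19.9%.

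**Figure D4:**
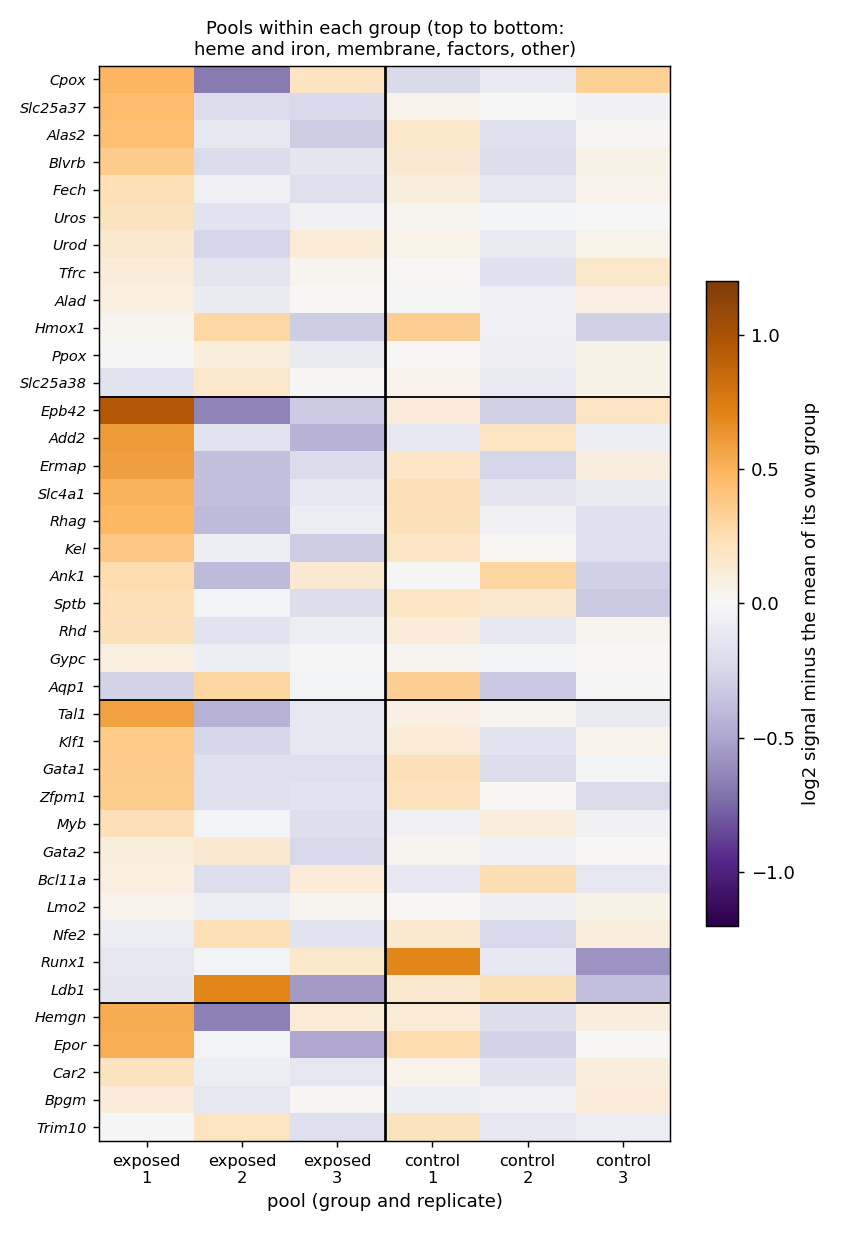
Log2 signal of each of the 39 erythroid genes (y axis, grouped by role) in each pool (x axis, diabetes-exposed pools left and control pools right), as the difference from the mean of the pool's own group. Orange is above and purple below that mean, and diabetes-exposed replicate 1 is above it for most genes, with a median of 0.23 over all 39.

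Other genes of the same functions were read from lists of 89 further names, of which 76 were measured. Of these 76 genes 18 fell (23.7%) and 13 rose (17.1%), which is near the shares of all genes, and their median log2 fold change was -0.034. Among 24 further genes of heme and iron, 8 rose and 2 fell. Those that rose included Blvra, a biliverdin reductase (0.68, adjusted p = 0.0031), and the constitutive heme oxygenase Hmox2 (0.47, adjusted p = 0.0047). Those that fell were the mitochondrial transporter Abcb10, which binds and stabilizes mitoferrin (-0.80, adjusted p = 0.0041), and the porphyrin transporter Abcb6 (-0.56, adjusted p = 0.0031). Abcb10 had 783, 633 and 537 in exposed pools and 1228, 1077 and 1051 in control pools, without overlap.

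Among 22 further membrane and skeleton genes 4 fell (18.2%, beside 19.9% of all genes) and 2 rose (9.09%, beside 17.6%). Their median log2 fold change was -0.027, so this list did not share the low median of the 11 membrane members. Slc43a1, an amino acid transporter, had 238, 244 and 189 in exposed pools and 615, 567 and 525 in control pools, and fell without overlap (-1.35, adjusted p = 6.1e-04). Dmtn, or dematin, which bundles actin at the spectrin junction, had 356, 316 and 183 in exposed pools and 644, 574 and 584 in control pools, and fell (-1.13, adjusted p = 0.0064). The glucose transporter Slc2a1 (0.59) and the adhesion molecule Cd44 (0.35) rose, and both are used by many tissues of the embryo. Among 30 further regulators 12 fell (40%) and 3 rose (10%). The falls with the smallest adjusted p were those of Tcf3, the E protein that pairs with Tal1, with 773, 929 and 596 in exposed pools and 2866, 2744 and 2378 in control pools (-1.82, adjusted p = 2.7e-04), and of the RNA-binding protein Zfp36l2 (-1.73, adjusted p = 3.5e-04). Both are widely used outside blood. Kitl, the ligand of Kit (0.54), and Bach1, a heme-sensing repressor (0.47), were among those that rose.

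Lists of markers of other cell types were read beside these genes, since Gata2, Tal1 and Lmo2 are used by endothelium and Gata1, Tal1, Zfpm1 and Nfe2 by megakaryocytes. Of 12 endothelial genes 3 fell (25%) and 2 rose (16.7%), while of all genes 19.9% fell and 17.6% rose. Summed endothelial signals were 5820.1 to 6995 in exposed pools and 6383 to 6437 in control pools. Of 8 megakaryocyte and platelet genes 3 rose (37.5%) and 1 fell (12.5%). The sum was 1741 to 2374 in exposed pools and 1418 to 1593 in control pools. Pf4, a platelet chemokine, had the largest part of this sum and rose (0.66). Itga2b was the gene that fell, without overlap (-0.54, adjusted p = 0.039), so the markers of this list did not share a direction. Of 12 macrophage genes 2 rose (16.7%, near the share of all genes) and 0 fell. Their sums were 1790.1 to 2179 in exposed pools and 1583 to 1653 in control pools. Of 10 genes of yolk sac endoderm and liver 3 rose (30%) and 0 fell. The sum was 7879 to 11845 in exposed pools and 5144 to 5868 in control pools, with a rise of Afp (0.90). Of 3 placental and decidual genes 2 fell, above all Prl8a2, a decidual prolactin relative, with 39, 39.3 and 30.7 in exposed pools and 6522, 5699 and 6412 in control pools (-7.42). Phlda2, from the same list, had every exposed pool above every control pool, with no call (0.53, adjusted p = 0.12). The sums of the last 4 lists did not overlap between groups, and that of the placental list was mostly Prl8a2 in control pools. The part of these tissues in the results for erythroid genes was not tested.

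The order of the groups of genes depended on the processing. Membrane genes had the lowest median of the 4 groups as deposited (-0.60), under median centring (-0.30) and when the spike ratio was a covariate (-1.01). With other scalings they were at -0.31 (quantile) and -0.40 (cyclic loess), level with the 5 other red cell genes at -0.32 and -0.40. With signals averaged over a gene's probe sets, the lowest median was that of the transcription factors, at -0.52. Under each of these 6 ways of processing the median of each group of genes was below that of all genes, by as little as 0.0047 for transcription factors under quantile normalization. Median centring shifts every estimate by the same amount. Its distances from the median of all genes are therefore those of the deposited signals and no separate result.

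**Figure D5:**
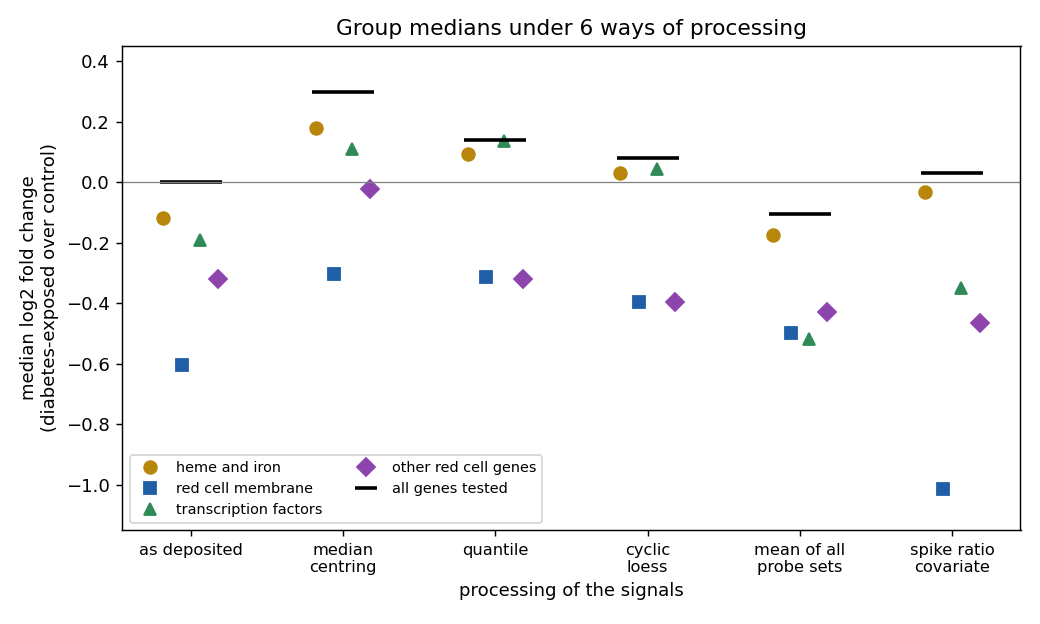
Median log2 fold change (y axis, diabetes-exposed over control pools) of the 4 groups of erythroid genes and of all genes tested (black bars) under 6 ways of processing the signals (x axis). The medians of heme and iron genes and of transcription factors lie below 0 as deposited (-0.12 and -0.19) and above 0 under the 3 other scalings, and every group lies below the bar of all genes.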

How the data were processed

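Deposited values were linear signal intensities of each probe set in each pool. The authors derived them from matched and mismatched probes with GCOS and MAS5 (versions not given in the sources used here). Total RNA had been labelled by the one-cycle procedure, which starts from the poly-A tail. The authors' scaling gave each array the same mean signal (500.002 to 500.003 without the lowest and highest 2%), and a signal is therefore relative to the rest of its array. Array medians were 74.1 to 78.9 in exposed and 82.5 to 103.3 in control pools. Log2 was taken without a pseudocount. The 33.3% dimmest probe sets and 64 Affymetrix control probe sets were left out. Symbols came from the platform's table, which gave 1 symbol for 34958 of 45101 probe sets, several for 932 and none for 9211. Exposed and control pools were compared by lmFit and eBayes with a trend (limma 3.58.1, R 4.3.3) with Benjamini-Hochberg adjustment over 30025 probe sets. The procedure was tested on simulated data.

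Values in every pool were given for 9 members of interest, for up to 3 members in each direction in each group of genes, for the 2 with the highest mean signal in each group and for members called in both directions. Of each list of other erythroid genes, up to 2 in each direction with the smallest adjusted p were named. Hemgn, Epb42, Add2, Ank1, Rhd, Lmo2 and values at dimmer probe sets were added after their values were seen. The members, lists and tests were chosen with earlier results of these data known. Alternatives were 3 scalings, a pseudocount of 32, no filter or a filter of 50%, no trend, the mean of a gene's probe sets, removal of the less specific probe sets (those that can bind several transcripts), the spike ratio as a covariate (8 pairs of probe sets), a replicate block, the methods' t-test and leaving out each pool. Leaving out exposed replicates 1 and 3 together was chosen after seeing the data. Pools came from different pregnancies. The number of arrays limits the precision. Plots used Python 3.11.15 and matplotlib 3.10.9.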

Additional observations from a re-analysis of the deposited data

How the results depend on the processing

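With the signals as deposited 13 members fell (19.9% of all genes) and 3 rose (17.6% of all genes). Median centring gave 5 that fell (8.73% of all genes), quantile normalization 7 (15.4%), cyclic loess normalization 8 (17%), and eBayes without a trend 7 (15.8%). With signals averaged over a gene's probe sets 19 fell (25.2%) and 2 rose (13.5% of all genes). Once the spike ratio was added as a covariate 2 members fell, Zfpm1, which was 1 of the 13, and Cpox, which was not, and 0 rose. In that fit 1.73% of all genes fell and 0.0788% rose. At an unadjusted p under 0.05, 13 members fell and 0 rose. The methods' t-test left 0 in either direction after adjustment, where 1.69% of all genes fell and 0.387% rose. At an unadjusted p under 0.05 in that test, 9 members fell and 2 rose. Without exposed replicates 1 and 3 together, 0 rose and 15 fell (11.5%), in a fit where the lone exposed pool is assumed to vary like the control pools. The median of all members was -0.021 under median centring, where that of all genes was 0.30. With 1 pool left out, 6 to 18 members fell, 2 to 4 rose, and the median was -0.42 to -0.25. In those fits 13.2% to 22.5% of all genes fell and 10.8% to 20.1% rose.

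The median of heme and iron genes was 0.18, 0.091 and 0.029 under median centring, quantile and cyclic loess normalization, and 0.0063 without exposed replicates 1 and 3. That of transcription factors was 0.11, 0.14 and 0.043 under the same 3 scalings. In the same order Gata1 gave 0.23, 0.23 and 0.15, and Hmox1 gave 0.11, 0.13 and 0.049. Gata1 lay between -0.25 and 0.046 with 1 pool left out, above 0 without control replicate 1 (0.046), exposed replicate 2 (0.022) or exposed replicate 3 (0.020). With the spike ratio as a covariate Hmox1 was 0.50, Tfrc -0.023, Bpgm -0.21 and Rhag -0.48. With the mean of all probe sets Tfrc was -0.76 and Bpgm -0.43, and without probe sets that may bind several transcripts Bpgm was -0.32. Without exposed replicates 1 and 3, Hmox1 was 0.098, Bpgm -0.061 and Rhag -0.29, and Rhag lay between -0.13 and 0.30 with 1 pool left out. Zfpm1 kept its call under 17 of 18 alternatives (all but the methods' t-test), and Uros, Slc4a1 and Kel under 16 of 18. The cause of these changes was not tested.

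With the replicate number as a block, 17 members fell and 3 rose, while 19.9% of all genes fell and 17.3% rose in that fit. Samples that share a number shared little else: their deviations from the group means correlated at 4.9e-05, 0.076 and 0.12, so the numbers were not taken as pairs.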
